A study of Schmidtea mediterranea with 4 samples.

Results

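The cells described here were barcodes of sexual *Schmidtea mediterranea* that held at least 2 unique molecular identifiers (UMIs, counts of captured transcripts) of *LamA* (SMESG000056013.1) and 0 UMIs of *nrps* (SMESG000023215.1). This rule selected 446 of 48216 cells (0.925%), and they are called members below. The members were therefore chosen on their own measured values of both genes. A further 41 cells had at least 2 *LamA* UMIs together with *nrps*.

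The study profiled single cells by droplet RNA sequencing (scRNA-seq) from mature sexual planarians, in 2 posterior and 2 anterior libraries of tissue rich in reproductive organs. All 4 libraries came from animals of the sexual strain with no treatment given in the labels, fed calf liver and then starved before dissociation, and cells were stained with Hoechst and propidium iodide and sorted. Each library was a pool of tissue from several planarians, and no source used here says that the libraries of a region came from separate dissociations, so the tests below measure the spread between these libraries. The files paired no gene ID with a name, so genes other than the ones the study itself identifies are given by ID.

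Laminins are large secreted proteins of the extracellular matrix that assemble into basement membranes, the sheets on which epithelia, muscle and organs rest. Planarian *LamA* encodes such a matrix component, and the study used it as a marker of somatic gonadal cells and of the support cells that envelop yolk cells. *nrps* encodes a predicted nonribosomal peptide synthetase, an enzyme that joins amino acids without a ribosome, and marks the somatic niche cells of the gonads and vitellaria. A cell with *LamA* and no *nrps* may be another kind of cell, or a niche cell whose few *nrps* transcripts were not captured, and counts alone cannot tell these apart in a single cell.

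Members made up 1.09% of cells in posterior 1 (131 of 12026, exact binomial 95% interval 0.912 to 1.29%) and 1.18% in posterior 2 (226 of 19080). They made up 0.402% in anterior 1 (27 of 6721, interval 0.265 to 0.584%) and 0.597% in anterior 2 (62 of 10389). Both posterior libraries lay above both anterior ones. The mean share was 1.14% ± 0.0673 in posterior tissue and 0.499% ± 0.138 in anterior tissue (SD, n = 2 each), and the difference of 0.638 percentage points had an exact two-sided permutation p of 0.33, the smallest that 2 libraries against 2 can give. Depth moved with this share, since the median cell held 3298 UMIs in posterior 1 and 2395 in posterior 2, against 1208 in anterior 1 and 1218 in anterior 2. When each cell was thinned to 1000 UMIs and 12426 shallower cells were left out, 97 of 35790 cells met the rule. The rule was applied to the thinned counts, so a cell that lost its *nrps* UMIs in thinning could also meet it. The posterior libraries held 3 and 16 cells with at least 2 *LamA* UMIs and *nrps*, and the anterior ones 6 and 16. How many of them met the rule after thinning was not counted. The thinned share was 0.264% ± 0.0616 in posterior and 0.247% ± 0.145 in anterior tissue (difference 0.0175 points, exact permutation p = 1, n = 2 each). At equal depth the posterior and anterior libraries overlapped. The rule was met by 23 and 46 cells in the posterior libraries and 6 and 22 in the anterior ones.

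**Figure D1:**
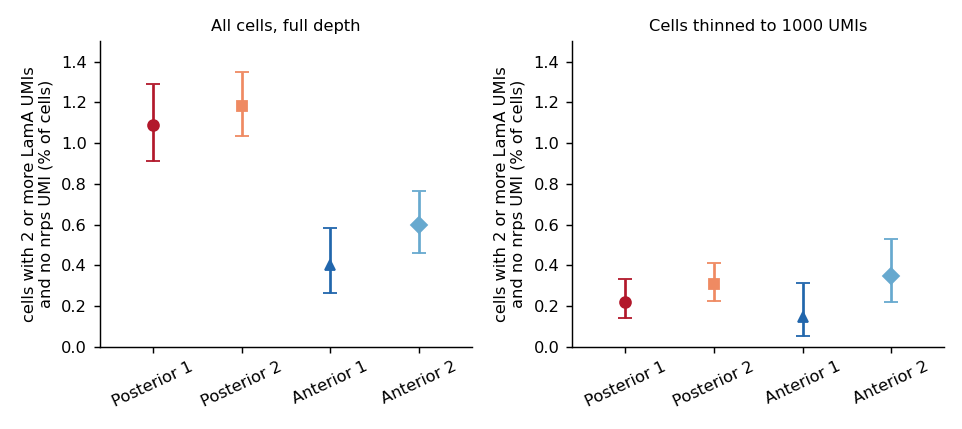
Share of cells with at least 2 LamA UMIs and no nrps UMI (percent of cells) in each library, at full depth on the left and after thinning every cell to 1000 UMIs on the right. Points are libraries and bars are exact binomial 95% intervals. At full depth the posterior libraries sit at 1.09% and 1.18% and the anterior ones at 0.402% and 0.597%, and after thinning all 4 lie between 0.145% and 0.349%.

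Most members sat at the threshold. Exactly 2 *LamA* UMIs were found in 262 members, 3 or more in 184 and 5 or more in 67, and the highest member had 31. Just outside the rule, 1171 cells had 1 *LamA* UMI, at a median depth of 3467 UMIs, and the members with exactly 2 had a median depth of 3937 UMIs. Together the members held 1449 of all 3049 *LamA* UMIs (47.5%). Their *LamA* level was 346 and 435 CPM (UMIs of the gene scaled to a common total of summed UMIs) in posterior 1 and 2 and 878 and 1448 CPM in anterior 1 and 2, levels that the rule ties to depth, since 2 UMIs are a larger part of a shallow cell. The libraries shared 227 cell barcodes in all, and 8 members (1.79%) carried one of these, against 0.944% of all cells. No barcode was a member in more than 1 library.

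Members were compared with LamA-0 cells of the same library, 5 for each member, chosen for the nearest total UMI count and each used once. Members and matched cells had median depths of 4752 and 4752 UMIs in posterior 1, 5304 and 5304 in posterior 2, 1907 and 1906 in anterior 1, and 1460 and 1459 in anterior 2. All cells were also clustered by expression with *LamA*, *nrps*, *klf4l* and the gut-expressed *nrps* paralog left out of the gene set, which gave 56 clusters. Only these 4 genes could be set by gene ID, too few to name a cluster, so the clusters carry numbers and no cell type names.

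The members did not form a single expression type. They fell in 42 of the 56 clusters, and the 7 clusters with at least 20 members held 308 of them (69.1%), against 16.2% of the matched cells and 16.8% of all cells. These 7 were picked by their number of members, so a larger share of members there was partly set by the picking. No member was found in 14 clusters with 6839 cells, and the median cluster consisted of members to 0.367%. The spread over clusters was then compared at equal numbers of members and matched cells. The effective number of clusters (the inverse Simpson index, which counts equally filled clusters) was 11.6 for members and 20.3 for matched cells in posterior 1, and 10.6 and 22.4 in posterior 2. It was 4.12 for members and 13.3 for matched cells in anterior 1, and 6.01 and 19.8 in anterior 2. Members were lower in 4 of 4 libraries, by a mean of -10.9 ± 2.39 clusters (SD, n = 4, exact two-sided sign-flip permutation p = 0.13, the smallest that 4 pairs can give).

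Cluster 29 held the most members. They numbered 27 in posterior 1, 38 in posterior 2, 12 in anterior 1 and 19 in anterior 2, or 96 of its 520 cells (18.5%, and 10.6% after thinning). This cluster took 21.5% of all members and 0.359% of matched cells. It was identified by SMESG000008013.1 and SMESG000017804.1, found in 25.2% and 52.3% of its cells, at 210 and 2128 CPM in the cluster and 0.102 and 1.46 CPM in all other cells.

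Cluster 14 came next, with 63 members of 1336 cells (4.72%), of which 44 came from posterior 2, 8 from posterior 1, 1 from anterior 1 and 10 from anterior 2. These were deep cells, with a median of 8272 UMIs in its members, and after thinning only 0.508% of the cluster met the rule. Its identifying genes were SMESG000016089.1 at 619 CPM and SMESG000037418.1 at 296 CPM, against 11.8 and 5.95 CPM in other cells, and were found in 68.1% and 57.7% of its cells.

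Cluster 55 had the largest share of cells with *nrps* at any *LamA* level (19 of 55) and the densest membership. Of its 55 cells, 25 were members (45.5%), with 6, 10, 2 and 7 from posterior 1, posterior 2, anterior 1 and anterior 2. A further 16 of its cells had at least 2 *LamA* UMIs together with *nrps*, and only 6 had no *LamA* at all. After thinning, 13 of 33 cells (39.4%) met the rule, which may include cells that lost their *nrps* UMIs. In this cluster the members had a median depth of 1316 UMIs and the 16 cells with *LamA* and *nrps* 1339 UMIs. The median was 5 *LamA* UMIs in both groups. Its identifying genes were SMESG000060276.1 and SMESG000066649.1, at 2186 and 1617 CPM against 1.19 and 0.897 CPM in other cells, and were found in 85.5% and 87.3% of its cells.

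Cluster 21 also held both kinds of cell, 39 members and 15 cells with at least 2 *LamA* UMIs and *nrps* among 824. Here the members had a median depth of 3075 UMIs and the *nrps*-positive cells 1637 UMIs. Its identifying genes, SMESG000049777.1 and SMESG000014169.1, were found in only 5.83% and 1.58% of its cells, at 49.2 and 47.8 CPM against 0.0965 and 0.122 CPM elsewhere.

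Clusters 4, 9 and 18 held 38, 27 and 20 members. Cluster 4 was identified by SMESG000065690.1 and SMESG000061493.1, at 133 and 234 CPM against 4.58 and 8.59 CPM in other cells, found in 9.50% and 32.8% of its cells. Cluster 9 was identified by SMESG000067888.1 and SMESG000009969.1, at 110 and 46.4 CPM against 7.66 and 3.39 CPM, found in 21.4% and 8.55% of its cells. Cluster 18 was identified by SMESG000066854.1 and SMESG000075928.1, at 737 and 1686 CPM against 3.28 and 8.87 CPM, found in 45.2% and 45.4% of its cells. The members of cluster 18 numbered 6 and 14 in posterior 1 and 2 and 0 in both anterior libraries, where the cluster had 285 and 578 cells in posterior 1 and 2 and only 34 and 42 in anterior 1 and 2. Those of cluster 9 numbered 10, 16, 0 and 1 among 545, 661, 100 and 297 cells of posterior 1, posterior 2, anterior 1 and anterior 2. Cluster 9 took 6.05% of members and 6.28% of matched cells, so members were no more frequent there than depth-matched cells were. Cluster 50, a small group of 138 cells, had 18 members (13.0%), at 12.5% and 13.7% of its cells in the posterior libraries and 11.8% and 12.5% in the anterior ones.

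**Figure D2:**
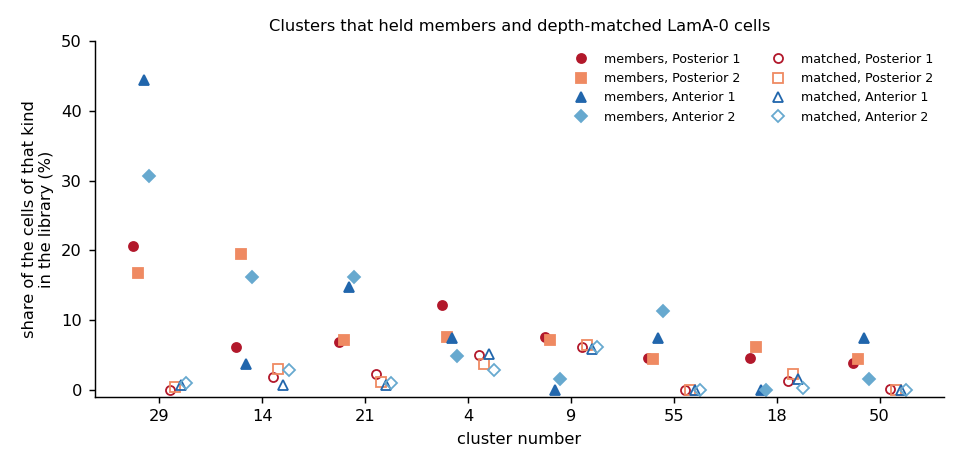
Percent of the members (filled symbols, left) and of the depth-matched LamA-0 cells (open symbols, right) of each library that fell in each of 8 clusters. Cluster 29 took 16.8 to 44.4% of the members in the 4 libraries and at most 0.968% of matched cells, and in cluster 9 members and matched cells overlapped.

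The clusters with the largest member share were then compared between libraries. The clustering had used the cells of all 4 libraries, so a library was left out of the picking of clusters only. This is therefore no independent test of the clusters. The shares are at full depth, and after thinning 4.65% of cluster 50 met the rule. When the 3 clusters with the largest member share were picked from 3 libraries, they were clusters 55, 29 and 50 whichever library was left out. In the library left out, 27.1% of the cells of these clusters were members in posterior 1, 23.2% in posterior 2, 10.7% in anterior 1 and 15.5% in anterior 2. Outside these clusters the shares were 0.782%, 0.892%, 0.167% and 0.343% in the same libraries.

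With all libraries joined, cells with more *LamA* UMIs had more members among their nearest cells, although *LamA* was not used to place them. The groups were set by the gene that also defines the members, and those with *LamA* were not matched to each other for depth. Among the 20 nearest cells of a matched LamA-0 cell, 1.02% were members on average. The value was 5.60% for cells with 1 *LamA* UMI, 14.5% for members with 2, 22.9% for members with 3 or 4, and 40.1% for members with 5 or more. In the posterior libraries the value was highest at 5 or more UMIs, at 40.0% and 45.8%. In the anterior libraries it was highest at 3 or 4 UMIs, at 41.4% and 37.8%, where the groups of 5 or more held only 5 and 11 members. Of the 67 members with 5 or more *LamA* UMIs, 29.9% were in cluster 29, 22.4% in cluster 55, 17.9% in cluster 21 and 16.4% in cluster 14, and 10.4% lay outside the 7 main clusters. Of the 262 members with exactly 2 UMIs, 35.1% lay outside them, against 83.8% of matched cells. The 7 main clusters were picked by their number of members, which partly sets this contrast. Free RNA in the droplets can give a cell a *LamA* UMI, and its part in the members with 2 UMIs was not tested.

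**Figure D3:**
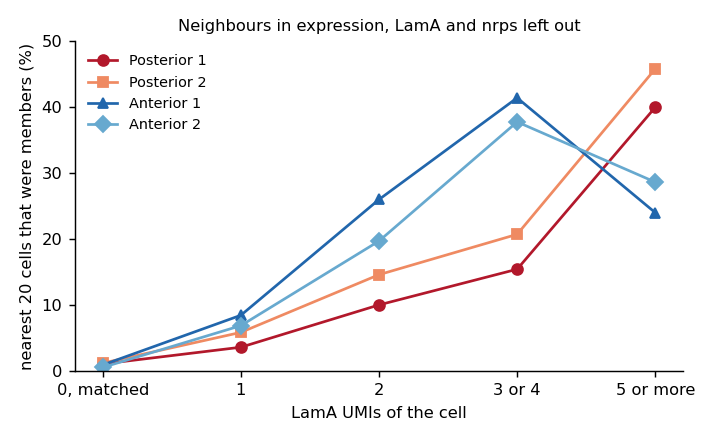
Mean percent of a cell's 20 nearest cells that were members, by the number of LamA UMIs of the cell, with 1 line for each library. Neighbours were found in principal components computed without LamA and nrps. All 4 libraries lie between 0.516% and 1.16% for matched LamA-0 cells and between 24.0% and 45.8% at 5 or more UMIs.

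The number of genes detected per cell was compared at equal depth. After thinning to 1000 UMIs, members had a mean of 701 genes and matched cells 712 in posterior 1, 707 and 725 in posterior 2, 681 and 697 in anterior 1, and 701 and 716 in anterior 2. The difference was negative in 4 of 4 libraries, with a mean of -15.0 ± 3.06 genes (SD, n = 4, exact sign-flip permutation p = 0.13, the smallest possible).

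UMIs were then summed over members and over matched cells of each library, and the sums were tested with edgeR's quasi-likelihood test with the library as a block. *LamA* and *nrps* were left out. Of 10509 genes tested, 975 (9.28%) differed at an adjusted p under 0.05. In members 765 genes (7.28%) were higher and 210 (2%) were lower, and 743 and 186 of these lay on the same side in all 4 libraries. The median log2 fold change over all genes tested was -0.07. These sums reflect the mix of clusters in each group as well as any change within a cluster.

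The gene with the largest increase was SMESG000037977.1. It had 2400, 3167, 4243 and 9431 CPM in the members of posterior 1, posterior 2, anterior 1 and anterior 2, against 5.97, 21.8, 51.8 and 48.7 CPM in their matched cells. Every library's members lay above every library's matched cells, and the log2 fold change was 7.41 ± 0.44 (SE, edgeR adjusted p = 2.64e-06). SMESG000037978.1, the next number in the gene list, was distributed in the same way, at 2844, 4121, 5779 and 12481 CPM in members against 11.6, 37.6, 112 and 77.4 CPM in matched cells (log2 fold change 6.90 ± 0.44, edgeR adjusted p = 4.8e-06). Of the UMIs of SMESG000037977.1 in members, 95.6% came from cluster 29, where 95 of 96 members had it, and 3.53% from cluster 14, where 48 of 63 had it. In the other main clusters 1 of 39 members of cluster 21, 1 of 25 of cluster 55, 1 of 38 of cluster 4, 1 of 27 of cluster 9 and 2 of 20 of cluster 18 had it, and outside the main clusters 14 of 138 (10.1%), against 4.62% of all matched cells. LamA-0 cells of cluster 29 also carried it, in 88 of 96 cells matched within the cluster, at 31030 CPM in members and 14600 CPM in these matches. Set against cells of the same cluster, the log2 fold change was 1.13 ± 0.25 (edgeR adjusted p = 0.0137), with members higher in 3 of 4 libraries and anterior 1 at 4243 CPM in members against 5450 CPM in matches.

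The 2 genes with the largest decrease had few UMIs in members. SMESG000008785.1 had 11.5, 99.5, 20.2 and 6.25 CPM in the members of posterior 1, posterior 2, anterior 1 and anterior 2, against 772, 1198, 2248 and 1161 CPM in matched cells (log2 fold change -5.25 ± 0.52, edgeR adjusted p = 5.06e-05). It was found in a like share of cells, 95 of 446 members (21.3%) and 536 of 2230 matched cells (24.0%), but with 185 UMIs in all in the positive members and 16080 in the positive matched cells. Clusters outside the 7 main ones held 97.9% of its UMIs over all cells. SMESG000050434.1 had 2 UMIs in members, both in posterior 2, against 64, 375, 13 and 20 UMIs in matched cells of posterior 1, posterior 2, anterior 1 and anterior 2. The ratio of its level in members to that in matched cells was 0.0205 (95% counting interval 0.00248 to 0.0745), and the edgeR adjusted p was 6.98e-05.

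Both remaining genes that the study identifies by number gave no call. The gut-expressed *nrps* paralog (SMESG000014974.1) had 23.9, 23.0, 20.2 and 43.7 CPM in the members of posterior 1, posterior 2, anterior 1 and anterior 2, against 27.0, 31.5, 19.4 and 37.4 CPM in matched cells. It was lower in both posterior libraries and higher in both anterior ones, with a log2 fold change of -0.24 ± 0.24 (SE, edgeR adjusted p = 0.632). *klf4l* (SMESG000031008.1), a transcription factor gene of the early germ cell lineage, had too few counts to enter the test. It had 3 UMIs in 2 members (0.972 CPM), against 107 UMIs in 20 matched cells (7.16 CPM), a ratio of 0.136 with a 95% counting interval of 0.0276 to 0.408. By cell, *klf4l* was found in 0.448% of members (exact binomial 95% interval 0.0544 to 1.61%). It was found in 0.897% of matched cells (0.549 to 1.38%), and these intervals overlap. The counting intervals treat each UMI as independent and cover counting error only.

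A closer comparison set each member against 1 LamA-0 cell of the same library and the same cluster. This was possible for 427 members, and the 19 left out were all in cluster 55, which has too few LamA-0 cells. Both groups then held the same number of cells of each cluster, but not the same UMIs. In cluster 29 the members held 308637 UMIs and their matches 232672, and in cluster 55 they held 11105 and 4447. Of 9021 genes tested, 170 (1.88%) differed, 149 (1.65%) higher and 21 (0.233%) lower in members, with a median log2 fold change of -0.02. The same comparison without clusters 21 and 55, which was added after the data were seen, called 181 genes, of which 158 were among the 170. Without the library as a block edgeR called 0 genes, and 135 had an unadjusted p under 0.05, and with it 127 of the higher and 15 of the lower genes lay on the same side in all 4 libraries.

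SMESG000014711.1 was higher in members than in their cluster mates in both of the larger groups. It had 40.2, 79.4, 182 and 359 CPM in the members of posterior 1, posterior 2, anterior 1 and anterior 2, against 3.01, 4.93, 42.5 and 70.9 CPM in matched cells of the same clusters (log2 fold change 3.20 ± 0.29, edgeR adjusted p = 8.36e-07). Members were higher in 4 of 4 libraries. In cluster 29 it had 434 CPM in members and 81.7 CPM in their matches, and in cluster 14 it had 183 CPM in members and 10.8 CPM in their matches. It was found in 45 of 96 members of cluster 29 and 30 of 63 members of cluster 14, and in none of the 39 and 25 members of clusters 21 and 55. Depth was not fully matched in cluster 29, where the members had a median of 2350 UMIs and their matches 1982 UMIs, whereas in cluster 14 the medians were 8272 and 8253 UMIs.

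SMESG000066844.1 was found mainly in members of clusters 21 and 55. It had 8, 105, 5 and 40 UMIs in members of posterior 1, posterior 2, anterior 1 and anterior 2, against 0, 2, 1 and 4 UMIs in their matches (log2 fold change 4.31 ± 0.44, edgeR adjusted p = 3.49e-06). In cluster 21 it was found in 14 of 39 members and in 0 of their 39 matched LamA-0 cells. In cluster 55 it was found in 17 of 25 members. Of the 6 members that had a match there, 6 had it, and so did 3 of their 6 LamA-0 matches, at 1441 and 899 CPM. In clusters 29 and 14 it was found in none of 96 and 63 members. Of the 41 cells with *LamA* and *nrps*, 30 had it.

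For both genes with the largest decrease within clusters, most UMIs of the matched cells came from cluster 29, which held 25.5% of the UMIs of SMESG000016810.1 and 12.3% of those of SMESG000008865.1 over all cells. SMESG000016810.1 had 7 UMIs in the members of cluster 29 and 82 in their matches there. Over all clusters it stood at 8.05, 1.78, 0 and 44.9 CPM in members of posterior 1, posterior 2, anterior 1 and anterior 2, against 33.1, 25.9, 21.3 and 56.7 CPM in matches (log2 fold change -2.19 ± 0.43, edgeR adjusted p = 0.00624). Neither DESeq2 nor the comparison with 3 matched cells per member called it. SMESG000008865.1 had 12.5, 16.6, 10.1 and 19.3 CPM in members, against 40.1, 34.5, 53.1 and 85.1 CPM in matches, and was lower in 4 of 4 libraries (log2 fold change -1.42 ± 0.29, edgeR adjusted p = 0.00836).

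The named genes showed 2 main patterns over the members' clusters. SMESG000073666.1 and SMESG000016088.1 were found in 86 and 84 of the 96 members of cluster 29 and in 61 and 63 of the 63 members of cluster 14. In cluster 21 they were found in 0 and 1 of 39 members, and in cluster 55 in 0 and 2 of 25. Within cluster 29 SMESG000073666.1 stood at 13505 CPM in members and 3211 CPM in matches, and within cluster 14 at 7121 CPM in members and 4582 CPM in matches. Over all clusters it was higher in members than in matches of the same cluster in 4 of 4 libraries (log2 fold change 1.55 ± 0.15, edgeR adjusted p = 2.05e-06). Since the clusters were themselves built from gene expression, these shares describe the clusters and are no test of them.

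**Figure D4:**
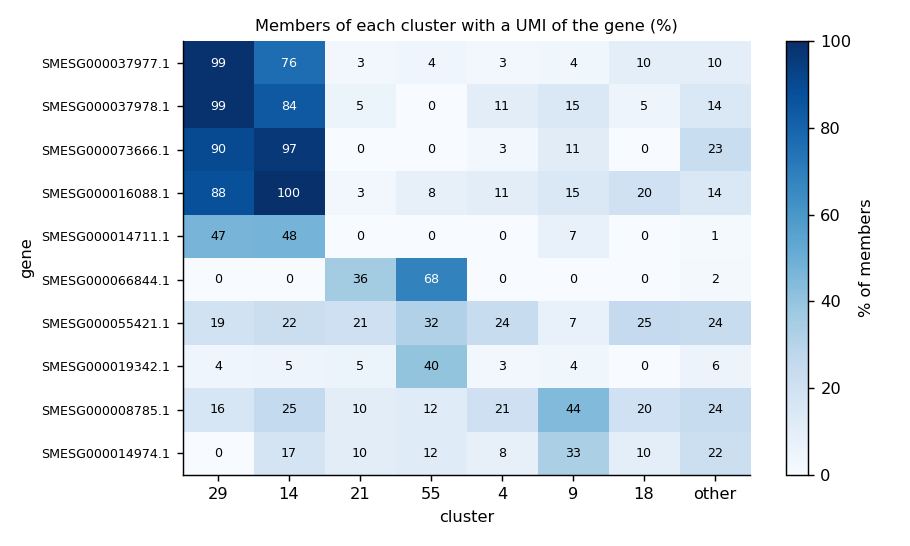
Percent of the members of each cluster that had at least 1 UMI of each named gene, with the clusters outside the 7 main ones joined as other. SMESG000037977.1 and 4 further genes were found mostly in the members of clusters 29 and 14. SMESG000037977.1 was found in 95 of 96 and 48 of 63 of these, and SMESG000014711.1 in 45 and 30. SMESG000066844.1 was found in 17 of 25 members of cluster 55 and 14 of 39 of cluster 21.

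The cells most like the members by the rule were the 41 cells with at least 2 *LamA* UMIs and *nrps*, of which 3 came from posterior 1, 16 from posterior 2, 6 from anterior 1 and 16 from anterior 2. These held 79601 UMIs in all, against 3086776 UMIs in the members, and so only 1154 genes could be tested. Members differed from them in 228 genes (19.8%), with 94 (8.15%) higher and 134 (11.6%) lower, and the median log2 fold change was 0.24. The 2 groups were matched for neither depth nor cluster, so these sums also reflect the mix of clusters in each. Below, *nrps*-positive cells means these 41 only. At any *LamA* level 162 cells had *nrps*, of which 22 were in cluster 7, 19 in cluster 55 and 18 in cluster 21. Clusters 21 and 55 held 15 and 16 of the 41 cells, and 39 and 25 of the 446 members. DESeq2 called 369 genes, 192 higher and 177 lower. Without posterior 2 only 69 genes were called.

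SMESG000073666.1 had 1671, 3014, 5365 and 9587 CPM in members of posterior 1, posterior 2, anterior 1 and anterior 2, against 781, 29.7, 0 and 0 CPM in the *nrps*-positive cells (log2 fold change 5.51 ± 1.23, edgeR adjusted p = 0.00843). It was no longer called without posterior 2, where its log2 fold change was 5.59. SMESG000016088.1 had 2791 UMIs in members and 3 in the *nrps*-positive cells, a ratio of 24.0 with a 95% counting interval of 8.20 to 116 (edgeR adjusted p = 0.00172). Both are genes of clusters 29 and 14, which held 1 and 0 of the *nrps*-positive cells.

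Among the genes lower in members, SMESG000055421.1 had 241, 97.8, 10.1 and 863 CPM in members of posterior 1, posterior 2, anterior 1 and anterior 2, against 15442, 8694, 167 and 23801 CPM in *nrps*-positive cells (log2 fold change -5.57 ± 0.71, edgeR adjusted p = 0.000439). SMESG000019342.1 had 6.20, 15.9, 10.1 and 75.0 CPM in members, against 841, 534, 667 and 749 CPM in *nrps*-positive cells (log2 fold change -5.08 ± 0.61, edgeR adjusted p = 0.000289). It was found in 10 of the 25 members of cluster 55 and in 4 of the 96 of cluster 29. SMESG000055421.1 was found in 97 of the 446 members (21.7%) and in 24 of the 41 *nrps*-positive cells, against 23.0% of depth-matched cells and 20.5% of all cells. Members and depth-matched cells gave no call for it (log2 fold change 0.23 ± 0.44, edgeR adjusted p = 0.823). Against LamA-0 cells of the same cluster SMESG000055421.1 was higher in members, in 3 of 4 libraries (log2 fold change 2.31 ± 0.37, edgeR adjusted p = 0.000906). This was a rise in UMIs with a like number of positive cells. Outside the 7 main clusters 33 of 138 members and 30 of 138 matches had it, with 351 and 44 UMIs. In cluster 21 these were 8 and 7 of 39 cells, with 96 and 7 UMIs. Cluster 9 went the other way, with 3 UMIs in members and 7 in matches. The anterior 1 values of SMESG000055421.1 in members and *nrps*-positive cells rest on 1 UMI in each group. Of its UMIs over all cells, 94.5% lay outside the 7 main clusters. Restricted to clusters 21 and 55, in a comparison added after the data were seen, members and *nrps*-positive cells differed in 66 of 228 genes tested, 34 higher and 32 lower in members.

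**Figure D5:**
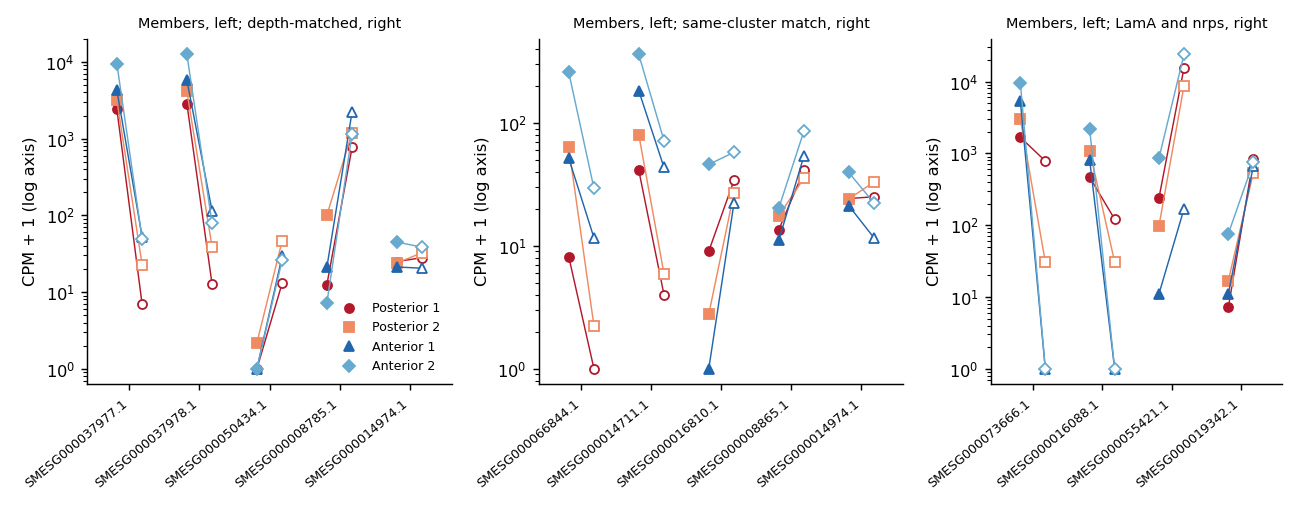
CPM plus 1 on a log axis of the named genes in the summed members of each library (filled, left) and in the cells they were set against (open, right), with a line joining the sums of 1 library. From left to right the panels show depth-matched LamA-0 cells, LamA-0 cells of the same cluster, and cells with LamA and nrps. SMESG000037977.1 lies between 2400 and 9431 CPM in members and between 5.97 and 51.8 CPM in depth-matched cells, and the gut-expressed nrps paralog (SMESG000014974.1) overlaps.

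Members of the posterior and anterior libraries were also compared with each other. Of 9736 genes tested, 0 (0%) differed by edgeR at an adjusted p under 0.05, 766 had an unadjusted p under 0.05, and DESeq2 called 75. The difference between members and depth-matched cells was tested for a dependence on region over 11956 genes. None (0%) was called by edgeR or by DESeq2, and 1019 had an unadjusted edgeR p under 0.05. Leaving out anterior 1, which had 27 members, gave 30 and 297 calls in these comparisons, where the lone anterior library is assumed to vary like the posterior ones. For SMESG000037977.1 the log2 difference of members, posterior minus anterior, was -1.32 ± 0.50 (edgeR adjusted p = 0.627), and for SMESG000014711.1 it was -2.22 ± 0.45 (edgeR adjusted p = 0.627). Shifts in the share of cells of a type and in RNA per cell are both contained in such sums.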

How the data were processed

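Per the labels and the study's methods, the authors counted UMIs per gene and cell with Cell Ranger against the genome of the sexual strain. The header of the deposited counts gives its version as 5.0.0. Raw counts were deposited for each library, neither normalized nor pooled. The counts listed 22192 genes, and the libraries held 11513838 to 72094246 UMIs. The members, gene lists and tests were chosen with earlier results of these data known.

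Clustering ran in Python 3.11.15 (scanpy 1.11.5, igraph 0.11.9 with leidenalg 0.10.2, neighbors from scikit-learn 1.9.0). Counts were scaled to 10000 per cell, log-transformed and reduced to 3000 variable genes and 50 principal components, joined over 20 neighbors and divided at resolution 1. Scrublet's own threshold marked 0 cells, so it did not work as doublet detection and no cell was removed. The removal of the top scores, at 0.8% per 1000 cells, was an alternative.

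Library sums entered edgeR 4.0.16 (R 4.3.3, quasi-likelihood test, TMM scaling, filterByExpr, Benjamini-Hochberg adjustment at 0.05). DESeq2 1.42.0 was an alternative. The script was tested on simulated data. Permutation tests and intervals (95%) used scipy 1.17.1. Named genes were the 4 that the study identifies by number, and, for each comparison, the 2 called genes with the largest fold change in each direction among those on the same side in every library and with at least 50 UMIs. Each cluster with at least 20 members was identified by the 2 genes with the largest ratio to other cells among those with at least 100 UMIs. No sequence was printed, since no genome was used here.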

Additional observations from a re-analysis of the deposited data

Results flagged for a closer look

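The gut-expressed *nrps* paralog (SMESG000014974.1) moved in opposite directions by region when members were set against LamA-0 cells of the same cluster. Members had 23.2 and 23.1 CPM in posterior 1 and 2 and their matches 24.1 and 32.0 CPM. Members had 20.2 and 38.5 CPM in anterior 1 and 2 and their matches 10.6 and 21.3 CPM. The posterior difference minus the anterior one was -18.3 CPM. It was not tested in this comparison, and the anterior sums rest on 2 and 6 UMIs in members and 1 and 3 UMIs in matches. Against depth-matched cells the like difference was tested, with a log2 value of -0.47 ± 0.60 (SE, edgeR adjusted p = 0.84).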

How the results depend on the processing

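The differences in genes per cell and in effective clusters kept their direction under all alternatives run, at -16.3 to -13.6 genes and -13.3 to -6.20 clusters. The difference in member share ranged between 0.0175 and 1.76 percentage points, and at the lowest, after thinning, the libraries of the 2 regions overlapped. Against depth-matched cells (975 genes called), 1856 genes were called with no filter on low counts, 584 without the library as a block, 589 with members of at least 3 *LamA* UMIs, 475 with 1 matched cell per member, 2295 with no depth match and 441 after thinning. Leaving out 1 library gave 481 to 1177, the lowest without posterior 2. Against cells of the same cluster (170 called), DESeq2 gave 87, no filter 332, no library block 0, 3 matched cells per member 302 and clustering at resolution 0.5 gave 402. Leaving out 1 library gave 93 to 221. Against *nrps*-positive cells (228 called), DESeq2 gave 369, no filter 771 and clusters 21 and 55 alone 66, and leaving out 1 library gave 69 to 354. Between regions (0 called), DESeq2 gave 75 and leaving out 1 library 0 to 30. For the dependence on region (0 called), library sizes without TMM gave 3, no filter 89 and leaving out 1 library 0 to 297. In the last comparison the median log2 value over all genes was 0.20, and in the other comparisons above with library sums it lay between -0.07 and 0.24. The gut-expressed *nrps* paralog, not called in any of these, changed sign within clusters to 0.0322 without the library block, 0.0292 with the top doublet scores removed and 0.0145 with 3 matched cells. Between regions it ranged between -0.71 and 0.25 over the libraries left out, the highest without anterior 2. The cause of these changes was not tested. Clusters 21 and 55 alone, and both left out, were chosen after seeing the data.

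The replicate numbers of the labels name libraries and are not stated to pair them. The deviations of same-numbered libraries correlated with r = 0.57 over 9736 genes, with 2 pairs only, and with the replicate number as a block edgeR called 0 genes between regions, with 444 at an unadjusted p under 0.05. Depth limits the anterior results, with 99068 UMIs in the members of anterior 1 and 6033 UMIs in its 6 *nrps*-positive cells.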
